A study of Mus musculus with 16 samples.

Results

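Mouse embryonic stem cells (ESCs) carrying an Actb knockout (KO) were compared with ESCs labelled as carrying a full deletion of the Actb locus, called locus deletion here after that label. Actb encodes beta-actin, the main cytoplasmic actin. The comparison took the 4 ESC libraries of those genotypes, 2 KO and 2 locus deletion, out of 16 libraries in the series, and every gene of the ESC table with a mean normalised read count of at least 1. This kept 23054 of 23083 genes. Both mutants carry the lesion in the same gene, and 2 wild-type ESC libraries of the same table serve as the unmutated point of orientation. The other libraries of the series come from fibroblasts with other mutations and were not used. The labels give the genotype of each library but not the lesion of the KO, the extent of the deletion, the ESC line or the number of clones, so clone and genotype cannot be told apart. Nor do they say whether libraries 1 and 2 of a group came from separate cultures. The p-values below thus cover no more than library-to-library spread, and part of it may be technical.

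Actin is made from 6 closely related genes in mice. Actb and Actg1 encode the cytoplasmic isoforms, Acta2 and Actg2 the smooth muscle isoforms, and Acta1 and Actc1 the skeletal and cardiac isoforms. In transcriptional adaptation, mutant mRNA that is degraded is held to alter the output of related genes, and a cell that lacks the locus makes no such mRNA. Actin also acts on transcription through MRTF, a coactivator of serum response factor (SRF) that is held by unpolymerised actin, and SRF binds CArG boxes in the promoters of many cytoskeletal genes. The series asked about transcriptional adaptation, and its labels set a knockout against a full deletion of the locus. The labels do not say whether the KO allele can be transcribed. The Actb values below bear on that point and on the deletion label.

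The likeness between the actin genes is shown by 90 coding bases, Actb codons 12 to 41, from the GENCODE M21 transcripts on GRCm38. Capitals mark bases that differ from Actb at the same place, and all of these genes lie on the minus strand. The Actb stretch is chr5:142905564-142905653, and those of Actg1, Acta2 and Acta1 are chr11:120347969-120348058, chr19:34252425-34252514 and chr8:123893569-123893658.
Actb: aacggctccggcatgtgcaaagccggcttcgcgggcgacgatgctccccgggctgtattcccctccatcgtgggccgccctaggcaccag
Actg1: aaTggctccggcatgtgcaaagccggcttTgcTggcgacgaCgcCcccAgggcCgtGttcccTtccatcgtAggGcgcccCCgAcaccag
Acta2: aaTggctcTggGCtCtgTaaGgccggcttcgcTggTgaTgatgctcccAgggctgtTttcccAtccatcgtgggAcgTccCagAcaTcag
Acta1: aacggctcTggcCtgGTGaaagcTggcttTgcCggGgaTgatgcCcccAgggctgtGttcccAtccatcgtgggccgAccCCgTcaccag
In this stretch Actg1 differs from Actb at 14 bases, and Acta2 and Acta1 at 18 bases each. Over 1116 aligned coding bases, identity to Actb was 88.8 percent for Actg1, 83.3 percent for Acta2 and 85.3 percent for Acta1. Reads that fall in stretches shared by close copies can be assigned to either, so the values of the low actins and of actin pseudogenes are uncertain.

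Actb itself separated the genotypes. The KO libraries held 23650 and 22707 normalised read counts (23178.5 ± 666.8, SD, n = 2), the locus deletion libraries 2372 and 2336 (2354 ± 25.5, n = 2) and the wild-type libraries 36364 and 34140 (35252 ± 1573, n = 2). The mean level in the locus deletion was 10.2 percent of that in the KO, and the log2 fold change KO over locus deletion was 3.30 (SE 0.0933, adjusted p = 4.5e-06, limma across all genes). Actb was thus well above 0 in the libraries labelled as a full locus deletion, and the table does not show which bases of the gene those reads cover. The call held with each library left out in turn, with adjusted p of 0.00786 to 0.0428.

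Differences passed the test in 1125 genes (4.88 percent of those tested) at an adjusted p below 0.05. Of these, 590 genes (2.56 percent of those tested) were higher in the KO and 535 (2.32 percent) were lower. In all 1125 of these genes the KO libraries did not overlap the locus deletion libraries, which was true of 46.4 percent of all genes tested. Fold changes of at least 2 were reached by 370 of the higher genes (1.6 percent) and 241 of the lower genes (1.05 percent). Among 11369 genes with a mean of at least 50, 871 were called (7.66 percent), 412 higher (3.62 percent) and 459 lower (4.04 percent). The median over all genes was 0.00, and 1010 of the called genes were protein coding. Libraries of the same number deviated together, and with the replicate number as a block 1735 genes were called (7.53 percent), 909 higher (3.94 percent) and 826 lower (3.58 percent). These counts rest on the spread shared by 6 libraries. Without KO library 1 or KO library 2 there was 1 higher call each, which was Actb. Without locus deletion library 1 or 2 there were 24 and 16 higher and 4 and 4 lower calls, and without wild-type library 1 or 2 there were 16 and 28 higher and 7 and 12 lower. All 1125 genes kept their direction each time. Of the 112 called genes eligible to be named, 1 stayed past the threshold without either KO library, 17 and 14 without locus deletion library 1 and 2, and 16 and 21 without wild-type library 1 and 2.

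**Figure D1:**
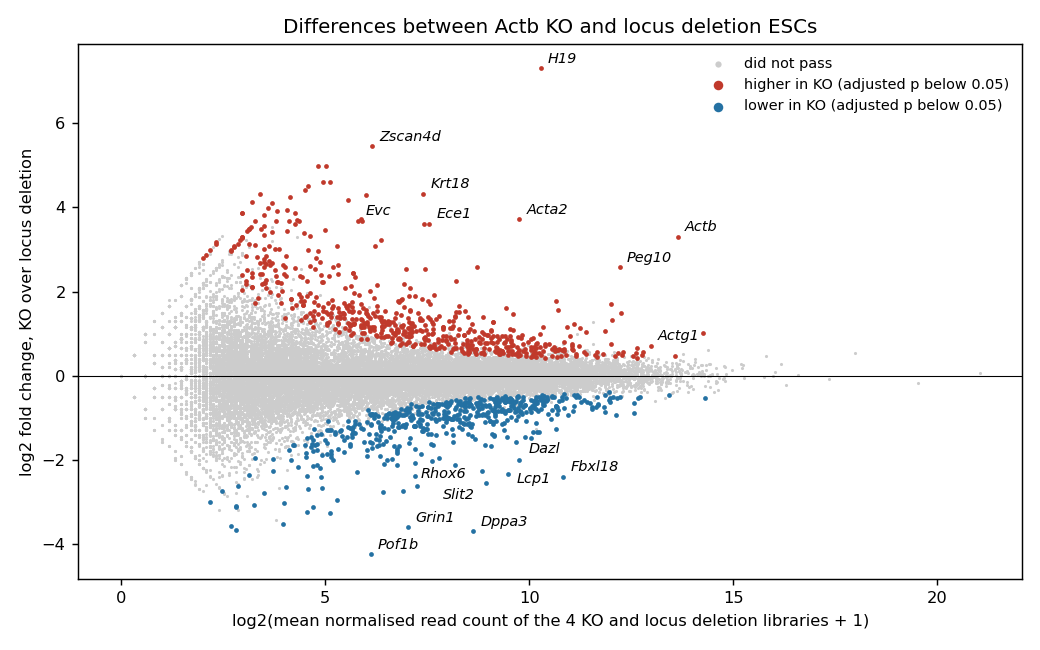
Each point is 1 tested gene. The horizontal axis is log2 of the mean normalised read count over the 4 libraries plus 1, and the vertical axis is the log2 fold change, KO over locus deletion. Red points (590) were higher and blue points (535) lower in the KO at an adjusted p below 0.05. H19 lies highest at 7.30 and Pof1b lowest at -4.25 among all genes plotted.

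The other actin genes were higher in the KO than in the locus deletion where they passed the test. Of the 6 actin isoforms, counting Actb itself, 4 were higher, and the median log2 fold change of the 6 was 2.49. Actb, the gene targeted in both mutants, is among the 4, and the others were Acta2, Acta1 and Actg1. No isoform was lower, also at an unadjusted p below 0.05 (limma). Actg1, the gene of gamma-actin, held 9514 and 10583 in the KO (10048.5 ± 755.9, n = 2), 5621 and 6616 in the locus deletion (6118.5 ± 703.6, n = 2) and 4744 and 5456 in wild type (5100 ± 503.5, n = 2). Both KO libraries lay above both locus deletion libraries, with a ratio of the means of 1.64 (log2 fold change 0.72, SE 0.122, adjusted p = 0.0153, limma). Without any 1 library the log2 fold change was 0.60 to 0.84 and the adjusted p was 0.0928 to 0.25, so this call needed all 6 libraries.

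Acta2, which encodes smooth muscle alpha-actin, showed the wider gap. It held 1565 and 1631 in the KO (1598 ± 46.7, n = 2), 109 and 134 in the locus deletion (121.5 ± 17.7, n = 2) and 2 and 9 in wild type (5.5 ± 4.95, n = 2). The ratio of the means of KO and locus deletion was 13.2 (log2 fold change 3.71, SE 0.46, adjusted p = 0.00468, limma). Actg1 and Acta2 thus both followed the order KO, locus deletion, wild type, and no groups overlapped. Leaving out a KO or locus deletion library gave adjusted p of 0.13 to 0.227 for Acta2. Acta1, the skeletal isoform, held 31 and 28 in the KO, 1 and 3 in the locus deletion and 2 and 6 in wild type (difference on the log2(value + 1) scale 3.43, adjusted p = 0.0173, limma, and 0.079 to 0.273 without any 1 library). Actc1, the cardiac isoform, held 23 and 19 in the KO against 6 and 10 in the locus deletion (adjusted p = 0.319, limma). Actg2, the enteric smooth muscle isoform, held 10 and 16 against 1 and 8 (adjusted p = 0.363, limma). These did not pass, and all 3 muscle isoforms other than Acta2 lay at values of 31 or less in every library.

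**Figure D2:**
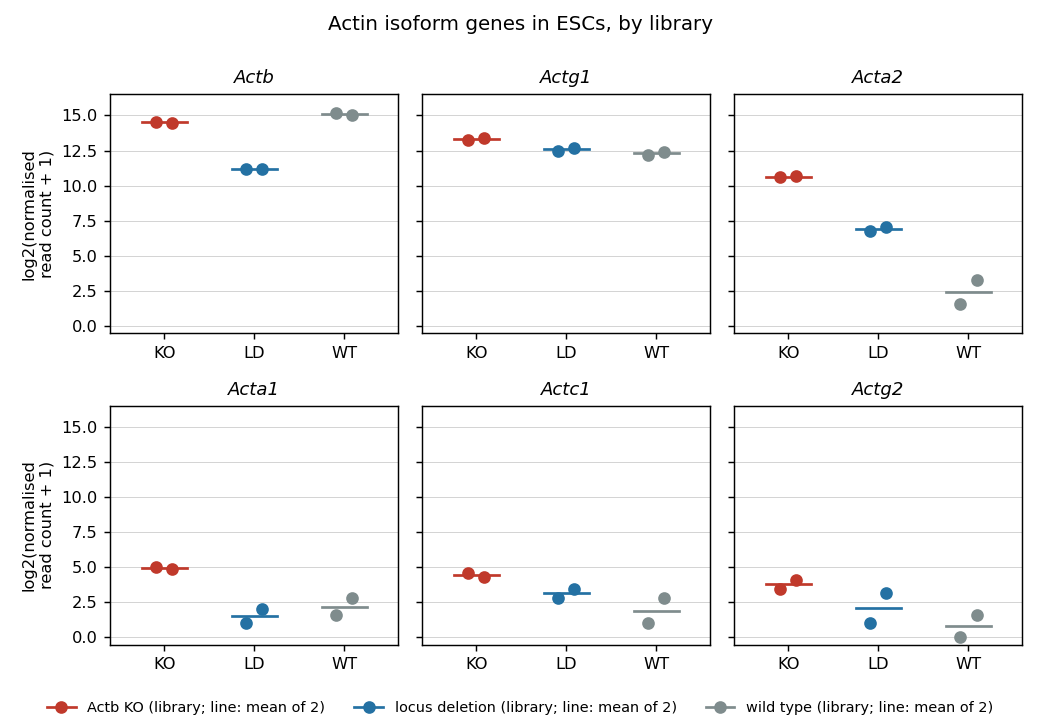
The 6 actin isoform genes, with log2(normalised read count + 1) on the vertical axis and the genotypes on the horizontal axis (KO, LD for locus deletion, WT for wild type). Points are libraries and lines are the mean of 2. Actb is lowest in the locus deletion, while Actg1 and Acta2 are highest in the KO, at 9514 and 10583 and at 1565 and 1631.

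Beyond the isoforms, sequence likeness to Actb was searched with blastn, counting alignments of at least 50 bases. An Actb transcript aligned on the same strand to transcripts of 91 other genes, 24 of which were tested. Of these, 3 were higher (Actg1, Acta2 and Acta1) and none was lower, the median log2 fold change was 0.53, and 18 had a higher log2 mean in the KO. None of the 12 processed pseudogenes among them passed (lowest adjusted p = 0.518, limma). They lie at low values. Gm12715, an actin-like processed pseudogene, held 27 and 21 in the KO and 18 and 13 in the locus deletion, and Gm8399 held 4 and 16 against 5 and 7. Lrrc58, a leucine-rich repeat gene whose transcript also aligns, held 1675 and 1583 in the KO, 1341 and 1198 in the locus deletion and 1607 and 1597 in wild type. Its log2 fold change of 0.36 did not pass (adjusted p = 0.0965, limma). On the opposite strand 4 genes aligned and 1 was tested, Grpel2, at -0.02 (adjusted p = 0.957, limma).

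The gene next to Actb differed in the other direction. Fbxl18 encodes an F-box protein, a substrate receptor of ubiquitin ligases, and lies on GRCm38 chromosome 5 at 142866946 to 142895421, on the minus strand like Actb at 142903115 to 142906754. It held 564 and 589 in the KO (576.5 ± 17.7, n = 2), 3381 and 2756 in the locus deletion (3068.5 ± 441.9, n = 2) and 429 and 491 in wild type (460 ± 43.8, n = 2). The log2 fold change was -2.40 (SE 0.132, adjusted p = 0.000139, limma), and the adjusted p was 0.0341 to 0.0963 without any 1 library. KO and wild type thus lay close together and the locus deletion stood above both.

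D430018E03Rik, annotated as a sense intronic transcript inside Fbxl18 at 142874077 to 142878373, held 38 and 44 in the KO, 293 and 225 in the locus deletion and 39 and 51 in wild type (log2 fold change -2.62, adjusted p = 0.00106, limma). Reads of Fbxl18 introns and of this transcript cannot be told apart. Of 26 other tested genes with bodies within 500 kb of Actb, these 2 were called. The remaining 24 had a lowest adjusted p of 0.121 (limma), and the 13 of them with a mean of at least 50 ranged between -0.41 and 0.39. Fscn1, the gene of the bundling protein fascin and the nearest tested gene toward higher coordinates, held 2541 and 2668 in the KO, 2256 and 1919 in the locus deletion and 2570 and 2520 in wild type (log2 fold change 0.32, adjusted p = 0.15, limma). Tnrc18, beyond Fbxl18, was at 0.12, and Rnf216, beyond Fscn1, at 0.00.

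**Figure D3:**
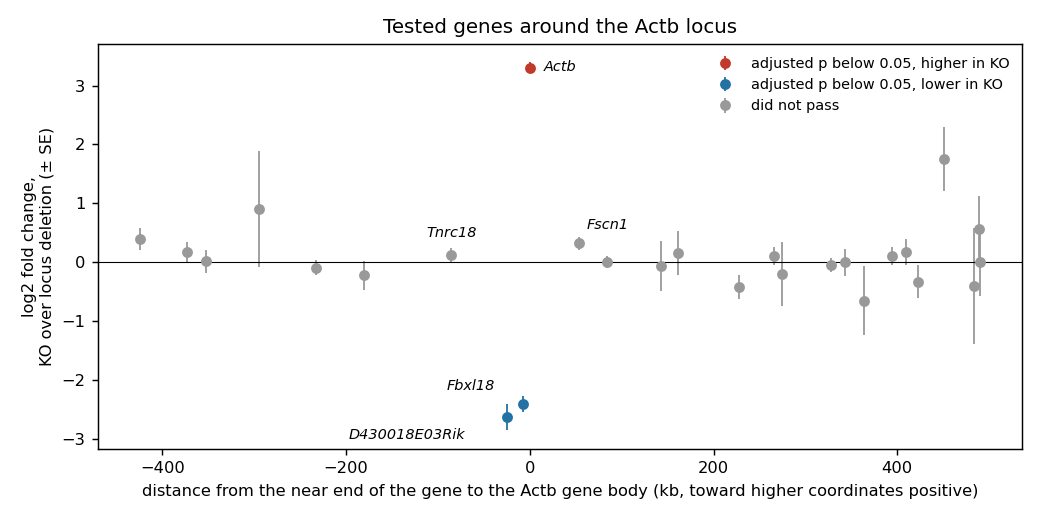
Tested genes within 500 kb of Actb. The horizontal axis is the distance of each gene from the Actb gene body in kb, and the vertical axis is the log2 fold change, KO over locus deletion, with its SE as bars. Fbxl18 at -2.40 and D430018E03Rik at -2.62 stand below the other neighbours.

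Genes known to respond to SRF and MRTF were called in both directions. The list also holds the MRTF genes Mkl1 and Mkl2, and it leaves out the actin isoforms described above. Of 37 measured members, 3 were higher (8.11 percent) and 2 lower (5.41 percent), with a median log2 fold change of -0.09. The shares over all genes tested, to set beside this and each list below, were 2.56 percent higher and 2.32 percent lower. With the replicate block 3 were higher and 7 lower. Those higher were Cnn1, Myl9 and Itga5. Myl9, a regulatory light chain of myosin II, held 808 and 862 in the KO, 433 and 541 in the locus deletion and 25 and 26 in wild type (log2 fold change 0.78, adjusted p = 0.0261, limma). Cnn1, the smooth muscle calponin, held 36 and 28 in the KO against 9 and 7 in the locus deletion (1.87, adjusted p = 0.0293, limma). Itga5, the alpha chain of the fibronectin receptor, held 706 and 763 against 491 and 477 (0.60, adjusted p = 0.0222, limma).

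The lower SRF targets were Vcl and Fhl1. Vcl encodes vinculin, which links integrin adhesions to actin, and held 2138 and 2034 in the KO, 3210 and 2965 in the locus deletion and 1235 and 1259 in wild type (-0.56, adjusted p = 0.0163, limma). Fhl1, a LIM-domain protein of muscle, held 161 and 174 in the KO against 334 and 345 in the locus deletion (-1.02, adjusted p = 0.0175, limma). Vinculin was thus above wild type in both mutants and higher in the locus deletion, opposite in order to Acta2 and Myl9.

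The promoters of some genes on both sides carry the SRF motif. A CArG box was searched as CC, then 6 bases of A or T, then GG, which reads as the same motif on both strands, in RefSeq promoter windows (GRCm38.p6, 250 bases before to 50 after the start). The 40-base windows below show the box in capitals. Myl9 lies on the plus strand at chr2:156775288-156775327, Actg1 on the minus strand at chr11:120348561-120348600, Acta1 on the minus strand at chr8:123894824-123894863, Vcl on the plus strand at chr14:20929156-20929195 and Fhl1 on the plus strand at chrX:56779566-56779605.
Actg1: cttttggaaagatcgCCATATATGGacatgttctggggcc
Acta1: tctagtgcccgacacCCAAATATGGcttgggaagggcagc
Myl9: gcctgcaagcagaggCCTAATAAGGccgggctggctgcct
Vcl: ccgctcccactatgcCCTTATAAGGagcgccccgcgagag
Fhl1: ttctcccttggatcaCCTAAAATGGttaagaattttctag
The first 3 genes were higher in the KO and the last 2 lower. The motif occurs in 535 of 32851 windows (1.63 percent). Among 12629 tested genes with a window, 416 were higher (3.29 percent) and 403 lower (3.19 percent), and among the 202 with a box 10 were higher (4.95 percent) and 14 lower (6.93 percent). Of 29 members of the SRF and MRTF list with a window 9 held a box. Actc1, which did not pass the test, also holds a box, and the Acta2 window holds no exact match.

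Some other actin-binding genes passed the test. Among all genes tested 2.56 percent were higher and 2.32 percent lower. Of 41 regulators of actin monomers and filaments, none was higher (1 at an unadjusted p below 0.05, limma, and 1 with the replicate block) and 3 were lower (7.32 percent), with a median of -0.06. Those were Diaph2, a formin that elongates filaments (-0.84), Cap1, which recycles actin monomers (-0.52), and Wdr1, which promotes filament disassembly with cofilin (-0.50). Wdr1 held 5488 and 5694 in the KO, 8354 and 7482 in the locus deletion and 2225 and 2537 in wild type. Cap1 held 5654 and 5084 in the KO, 7775 and 7620 in the locus deletion and 3620 and 3240 in wild type. Both genes were thus highest in the locus deletion, like Vcl.

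Among 20 actin crosslinkers and bundlers, 2 were higher and 2 lower (10 percent each), and 5 were lower with the replicate block. Lcp1, the gene of L-plastin, a bundling protein known from blood cells, held 218 and 249 in the KO (233.5 ± 21.9, n = 2), 1219 and 1136 in the locus deletion (1177.5 ± 58.7, n = 2) and 29 and 29 in wild type. Its log2 fold change was -2.33 (SE 0.143, adjusted p = 0.000208, limma), and the adjusted p without any 1 library was 0.0467 to 0.0935. Palld, the gene of palladin, was higher (733 and 823 against 369 and 446, 0.94), as was Actn4, the gene of alpha-actinin-4 (7927 and 8373 against 5503 and 6176, 0.48). Lima1, which stabilises filaments, was lower (-0.50). Of 33 integrin adhesion genes 1 was higher (3.03 percent) and 4 lower (12.1 percent). Itgb3, the integrin beta-3 chain, held 103 and 84 in the KO, 287 and 290 in the locus deletion and 96 and 94 in wild type (-1.62, adjusted p = 0.0024, limma). Fermt3, the kindlin of blood cells, held 191 and 207 in the KO, 387 and 478 in the locus deletion and 87 and 95 in wild type (-1.11, adjusted p = 0.00761, limma). Of 17 myosin II and tropomyosin genes, Myl9 was the 1 called. None was lower, with 2 at an unadjusted p below 0.05 (limma) and 1 with the replicate block.

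Genes that mark the 2-cell-like state, a rare state of mouse ESCs that resembles the 2-cell embryo, were higher in the KO. Of 19 measured, 13 were higher (68.4 percent, against 2.56 percent of all genes tested) and 1 lower (5.26 percent, against 2.32 percent). The median log2 fold change was 3.47. Zscan4d, a zinc finger gene of this state, held 138 and 137 in the KO, 4 and 1 in the locus deletion and 41 and 45 in wild type (adjusted p = 0.00067, limma). Zscan4a, annotated as an unprocessed pseudogene, held 62 and 62 in the KO, 1 and 1 in the locus deletion and 22 and 19 in wild type (adjusted p = 0.000481, limma). Both were near 0 in the locus deletion, with wild type between the mutants.

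The same order was seen in the rest of the family. Zscan4c held 49 and 65 in the KO against 2 and 8 in the locus deletion, and Zscan4e 57 and 71 against 6 and 0. Usp17lc, a deubiquitinase gene of the same state, held 52 and 56 in the KO, 2 and 0 in the locus deletion and 6 and 15 in wild type, and Usp17le held 44 and 55, 5 and 6, and 23 and 19 in the same groups (log2 fold change 2.95, adjusted p = 0.00323, limma). Zscan4 and Usp17l genes are families of near-identical copies, so how reads were split between members is uncertain and the members are not independent. The 1 lower gene was Dppa3, also called Stella, a maternal and germ cell factor that protects DNA methylation in the early embryo. Dppa3 held 69 and 44 in the KO (56.5 ± 17.7, n = 2), 692 and 764 in the locus deletion (728 ± 50.9, n = 2) and 166 and 95 in wild type (log2 fold change -3.70, SE 0.288, adjusted p = 0.000673, limma). In these bulk samples, fewer cells of a state and less RNA per cell cannot be told apart. Without any 1 library the adjusted p was 0.0241 to 0.168 for Zscan4d and 0.0494 to 0.143 for Dppa3.

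Imprinted genes, which are expressed from 1 parental allele under control of DNA methylation, held several of the widest gaps. Of 38 measured, 11 were higher (28.9 percent) and 3 lower (7.89 percent), 5 with the replicate block, with a median of 0.20. Across all genes tested the shares were 2.56 and 2.32 percent. H19, a long non-coding RNA expressed from the maternal allele, held 2675 and 2241 in the KO (2458 ± 306.9, n = 2), 9 and 23 in the locus deletion (16 ± 9.9, n = 2) and 200 and 157 in wild type. Its log2 fold change of 7.30 (SE 0.353, adjusted p = 0.000107, limma) was the highest of all genes tested, and the adjusted p was 0.00705 to 0.0963 without any 1 library. Igf2, a growth factor gene beside H19 that is expressed from the paternal allele, held 91 and 127 in the KO, 7 and 8 in the locus deletion and 18 and 39 in wild type (3.68, adjusted p = 0.00281, limma). H19 and Igf2 were thus both highest in the KO and lowest in the locus deletion, although they are normally expressed from opposite alleles.

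Peg10, a paternally expressed gene derived from a retrotransposon and needed in the placenta, held 7622 and 8603 in the KO (8112.5 ± 693.7, n = 2), 1450 and 1275 in the locus deletion (1362.5 ± 123.7, n = 2) and 1124 and 1341 in wild type (2.57, SE 0.126, adjusted p = 0.000107, limma). Here the locus deletion was close to wild type and the KO stood apart. Meg3 and Rian, maternally expressed non-coding RNAs of 1 imprinted cluster on chromosome 12, showed the other pattern. Rian held 5741 and 6163 in the KO, 2291 and 2497 in the locus deletion and 7318 and 9352 in wild type (1.31, adjusted p = 0.00204, limma). Meg3 held 3217 and 3398 in the KO, 1454 and 1568 in the locus deletion and 3610 and 4404 in wild type (1.13, adjusted p = 0.00272, limma). For these 2 RNAs the locus deletion was the low group. Dio3, a deiodinase gene of the same imprinted region, differed in the other direction, with 468 and 473 in the KO, 982 and 765 in the locus deletion and 41 and 35 in wild type (-0.88, adjusted p = 0.0211, limma), and was named after its values were seen. The neighbours in each cluster share regulation and are not independent members.

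Trophoblast regulators and markers, genes of the placental lineage, were split. Of 25 measured, 7 were higher (28 percent) and 3 lower (12 percent), against 2.56 and 2.32 percent of all genes tested. The median was 0.80. The keratins Krt8 and Krt18, which pair to form the intermediate filaments of simple epithelia, moved together. Krt18 held 339 and 302 in the KO, 15 and 15 in the locus deletion and 88 and 60 in wild type (4.33, SE 0.23, adjusted p = 0.000122, limma). Krt8 held 344 and 286 in the KO, 26 and 24 in the locus deletion and 105 and 92 in wild type (3.60, SE 0.188, adjusted p = 0.000122, limma). Wild type lay between the mutants for both, and the adjusted p without any 1 library was at most 0.0956. Eomes, a T-box factor of trophoblast and primitive streak, held 230 and 231 in the KO, 59 and 64 in the locus deletion and 130 and 138 in wild type (1.89, adjusted p = 0.00085, limma).

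The lower trophoblast genes included the X-linked homeobox genes Rhox6 and Rhox9. Rhox6 held 188 and 128 in the KO, 637 and 881 in the locus deletion and 7 and 5 in wild type (-2.26, adjusted p = 0.0039, limma). Rhox9 held 32 and 27 in the KO, 161 and 255 in the locus deletion and 2 and 3 in wild type (-2.74, adjusted p = 0.00435, limma). Both were above wild type in both mutants, with the locus deletion highest. Rhox6 and Rhox9 are close copies, and reads may have been split between them. Summed over the 25 genes, the trophoblast list held 11504 and 12257 in the KO, 5871 and 5808 in the locus deletion and 4350 and 4492 in wild type. Peg10 made up most of the sum in the KO but not in the other genotypes. The share of cells that express them was not tested.

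**Figure D4:**
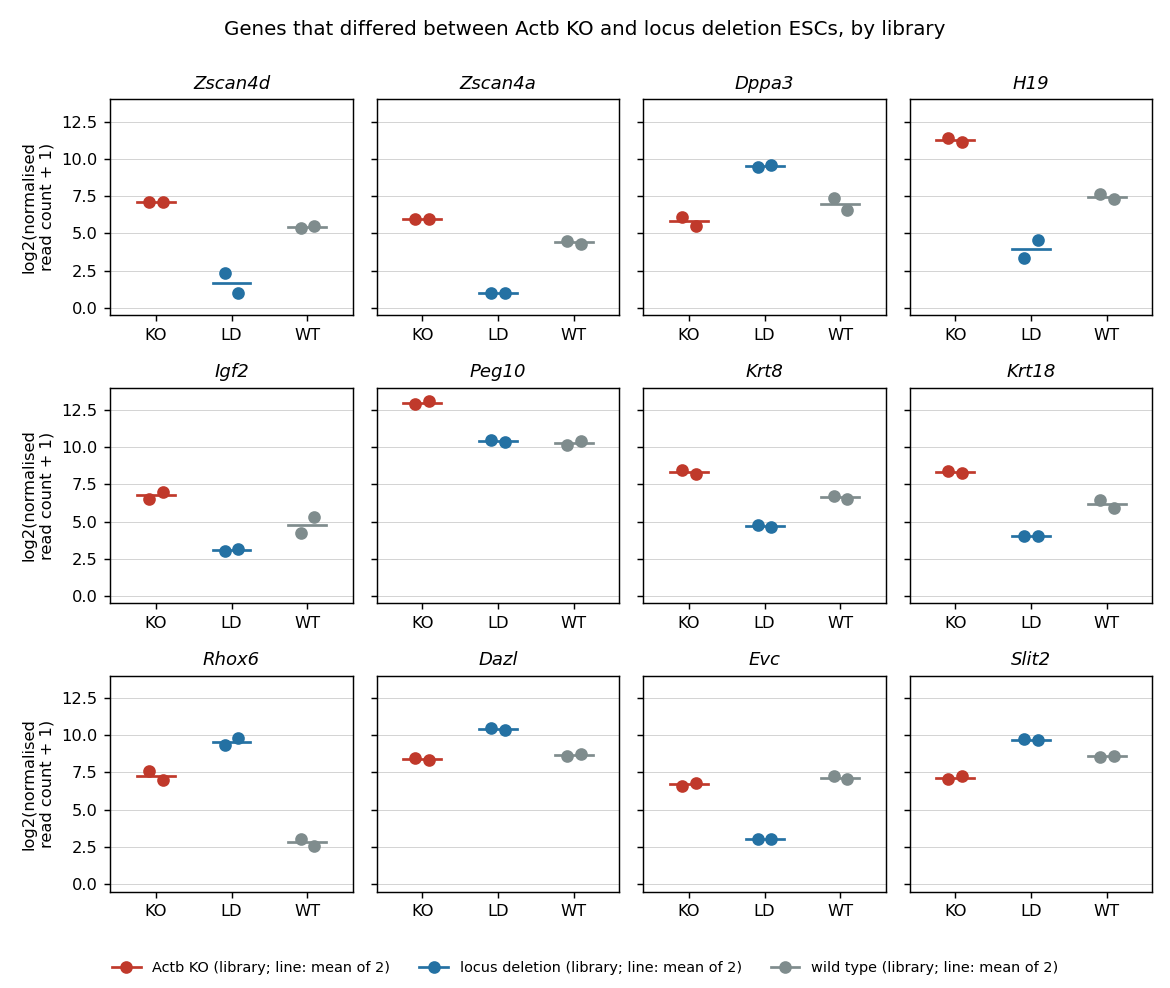
Normalised read counts of 12 genes, chosen from the named genes after their values were seen, as log2(value + 1) by genotype (KO, LD for locus deletion, WT for wild type). Points are libraries and lines the mean of 2. Zscan4d, Zscan4a, H19, Igf2, Krt8, Krt18 and Evc are lowest in the locus deletion, whereas Dppa3, Rhox6, Dazl and Slit2 are highest there.

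The ESC identity genes themselves were high in both mutants. Nanog, a core factor of pluripotency, held 8930 and 10844 in the KO, 11651 and 10326 in the locus deletion and 9727 and 11197 in wild type. Of 27 naive and core pluripotency genes, 3 were higher (11.1 percent) and 4 lower (14.8 percent), against 2.56 and 2.32 percent of all genes tested. Their median was -0.05. Lin28a, an RNA-binding protein that blocks let-7 maturation, held 2609 and 2332 in the KO, 795 and 657 in the locus deletion and 1127 and 974 in wild type (1.77, adjusted p = 0.000663, limma). Dnmt3l, the cofactor of the de novo DNA methyltransferases, held 2513 and 2437 in the KO, 830 and 841 in the locus deletion and 880 and 699 in wild type (1.57, adjusted p = 0.000784, limma). Its partner Dnmt3a was also higher (1287 and 1444 against 703 and 793, 0.87). Nr5a2, a nuclear receptor that sustains Pou5f1, was lower (3113 and 3214 against 5052 and 4682, -0.62). The lower gene with the widest gap on this list was Dppa3, at -3.70, described above.

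Of 18 primed and formative epiblast genes, 2 were higher (11.1 percent) and 3 lower (16.7 percent), against 2.56 and 2.32 percent of all genes tested. Otx2, a factor of the formative epiblast, held 18 and 17 in the KO, 60 and 61 in the locus deletion and 112 and 91 in wild type (-1.73, adjusted p = 0.00554, limma), and Zic2 was lower by the same test (455 and 452 against 851 and 766, -0.83). Germline genes, silenced by methylation in most somatic cells, had 2 higher calls and 6 lower calls (22.2 percent) of 27, with a median of -0.13. Dazl, an RNA-binding protein of germ cells, held 360 and 328 in the KO, 1444 and 1305 in the locus deletion and 385 and 418 in wild type (-1.995, SE 0.12, adjusted p = 0.000208, limma). Hormad1, a meiotic chromosome axis protein, held 393 and 358 in the KO, 1041 and 1029 in the locus deletion and 530 and 578 in wild type (-1.46, adjusted p = 0.000679, limma). Tuba3a, a testis alpha-tubulin, and Stag3, a meiotic cohesin subunit, were lower at -1.86 and -0.91. In all 4 genes the locus deletion held the highest mean of the 3 genotypes.

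Several genes of early differentiation and its signals were higher in the KO. Of 20 mesoderm and primitive streak genes, 3 were higher (15 percent) and 1 lower (5 percent), against 2.56 and 2.32 percent of all genes tested. Their median was 0.46. T, the primitive streak factor brachyury, held 32 and 31 in the KO, 7 and 8 in the locus deletion and 8 and 7 in wild type (1.94, adjusted p = 0.022, limma). Cdx1, a homeobox gene that WNT signalling induces, held 234 and 225 against 83 and 93 (1.37). Gsc, goosecoid, was lower, with 13 and 11 in the KO against 34 and 46 in the locus deletion (-1.65). Summed over the 20 genes, the list held 927 and 923 in the KO, 490 and 537 in the locus deletion and 477 and 412 in wild type.

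Of 17 WNT targets 4 were higher (23.5 percent, against 2.56 percent of all genes tested) and none lower. At an unadjusted p below 0.05 (limma) 3 were lower, and 2 were lower with the replicate block. Myc, the growth regulator, held 235 and 184 in the KO, 50 and 61 in the locus deletion and 22 and 16 in wild type (1.89, adjusted p = 0.00561, limma). Dkk1, a secreted WNT inhibitor that WNT itself induces, held 23 and 22 against 4 and 4 (2.23). The WNT ligand Wnt7b went the other way, with 5 and 6 in the KO, 71 and 53 in the locus deletion and 2 and 4 in wild type (-3.27, adjusted p = 0.00586, limma). Of 16 BMP and ID genes 4 were higher and none lower, with 2 lower at an unadjusted p below 0.05 (limma) and 1 with the replicate block, and the median was 0.73. Id1, an inhibitor of differentiation that BMP induces, held 96 and 122 in the KO, 25 and 27 in the locus deletion and 18 and 24 in wild type (2.02, adjusted p = 0.00561, limma). Id3, Msx2 and Fst were higher at 1.17, 1.98 and 0.87.

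Of 20 FGF and ERK feedback genes 3 were higher (15 percent) and 1 lower (5 percent), against 2.56 and 2.32 percent of all genes tested. Spry4, a feedback inhibitor of receptor tyrosine kinases, held 434 and 415 in the KO, 191 and 202 in the locus deletion and 22 and 19 in wild type (1.11, adjusted p = 0.00883, limma). Spry4 was thus far above wild type in both mutants. Spry2 and Etv1 were higher at 0.68 and 0.96, and the ERK phosphatase gene Dusp5 was lower at -1.20. Of 11 Nodal and Lefty genes 3 were higher (27.3 percent) and 1 lower (9.09 percent). The Nodal inhibitor Lefty1 held 52 and 44 in the KO, 13 and 3 in the locus deletion and 108 and 99 in wild type (2.71, adjusted p = 0.0222, limma, and 0.0454 to 0.337 without any 1 library). Its relative Lefty2 held 881 and 920, 473 and 514, and 1574 and 1845 in the same groups (0.87).

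Of 15 hedgehog pathway genes 2 were higher (13.3 percent) and 3 lower (20 percent), against 2.56 and 2.32 percent of all genes tested. The higher ones were Evc and Evc2, neighbours on chromosome 5 whose proteins form a complex at the base of the primary cilium. Evc held 94 and 111 in the KO, 7 and 7 in the locus deletion and 153 and 130 in wild type (3.69, SE 0.227, adjusted p = 0.000208, limma). Evc2 held 151 and 146 in the KO, 13 and 17 in the locus deletion and 263 and 216 in wild type (3.24, SE 0.208, adjusted p = 0.000254, limma). For this pair the locus deletion was the lowest group by a wide gap, and the KO libraries lay below the wild-type libraries. Ptch1, the hedgehog receptor and a target of the pathway, held 1050 and 1151 in the KO, 2069 and 1776 in the locus deletion and 1821 and 2323 in wild type (-0.80), and Gli3, a transcription factor of the pathway, was at -0.53.

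Several genes of lipid synthesis were higher in the KO than in the locus deletion. Of 24 cholesterol synthesis genes 8 were higher (33.3 percent, against 2.56 percent of all genes tested). None was lower, also at an unadjusted p below 0.05 (limma). Of the 24, 22 had a higher log2 mean in the KO, with a median of 0.46. Hmgcs1, which makes the substrate of the rate-limiting step, held 2619 and 2644 in the KO, 1675 and 1563 in the locus deletion and 2608 and 2659 in wild type (0.70, adjusted p = 0.00606, limma). Cyp51 and Msmo1, which act later in the pathway, were both at 0.75. Msmo1 held 1742 and 1846 in the KO, 1145 and 997 in the locus deletion and 3534 and 4165 in wild type. Cyp51 held 1508 and 1387, 869 and 845, and 1977 and 1766 in the same groups. For both genes the KO lay between the locus deletion and wild type. For Hmgcs1 the KO and wild type lay together and the locus deletion below them.

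Of 16 fatty acid synthesis genes 4 were higher (25 percent) and 1 lower (6.25 percent), against 2.56 and 2.32 percent of all genes tested. Scd2, a stearoyl-CoA desaturase, held 6820 and 7393 in the KO, 2642 and 2450 in the locus deletion and 11873 and 14044 in wild type (1.48, adjusted p = 0.000668, limma), and Scd1 held 3387 and 3799, 1783 and 1689, and 6128 and 7524 in the same groups (1.05). The lower gene was Acacb, which makes the malonyl-CoA that restrains fatty acid oxidation (396 and 408 against 729 and 690, -0.82). Of 40 genes of glycolysis and the response to low oxygen 5 were higher (12.5 percent) and 1 lower (2.5 percent). With the replicate block 9 were higher and 3 lower. Ldha, the lactate dehydrogenase subunit of glycolytic cells, held 5288 and 4773 in the KO, 2613 and 2204 in the locus deletion and 7934 and 6815 in wild type (1.07, adjusted p = 0.00397, limma). The phosphofructokinase gene Pfkl and the lactate exporter gene Slc16a3 were at 0.96 and 1.11. The locus deletion held the lowest mean of the 3 genotypes for Scd1, Scd2, Ldha, Pfkl and Slc16a3.

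Glutathione genes differed the other way. Of 22 NRF2 and glutathione genes none was higher, also at an unadjusted p below 0.05 (limma). Of the same genes 3 were lower (13.6 percent, against 2.32 percent of all genes tested), and 6 with the replicate block. The median was -0.25. Gss, glutathione synthetase, held 360 and 386 in the KO, 815 and 766 in the locus deletion and 478 and 505 in wild type (-1.08, adjusted p = 0.00283, limma). Gsto1 and Gstm1, which are glutathione transferases, were at -1.12 and -1.40. Among 30 genes of DNA replication and S phase 1 was higher (3.33 percent), the licensing factor gene Cdc6 (0.58), and 5 with the replicate block. That 1 call is a share near the 2.56 percent of all genes tested. None was lower, also at an unadjusted p below 0.05 (limma), and the list's median was 0.22. Of 27 mitosis and G2 genes the 1 called was the spindle protein gene Nusap1 (-0.58). This is 3.7 percent lower, near the 2.32 percent of all genes tested. Under the replicate block 2 were lower, and none was higher, also at an unadjusted p below 0.05 (limma).

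**Figure D5:**
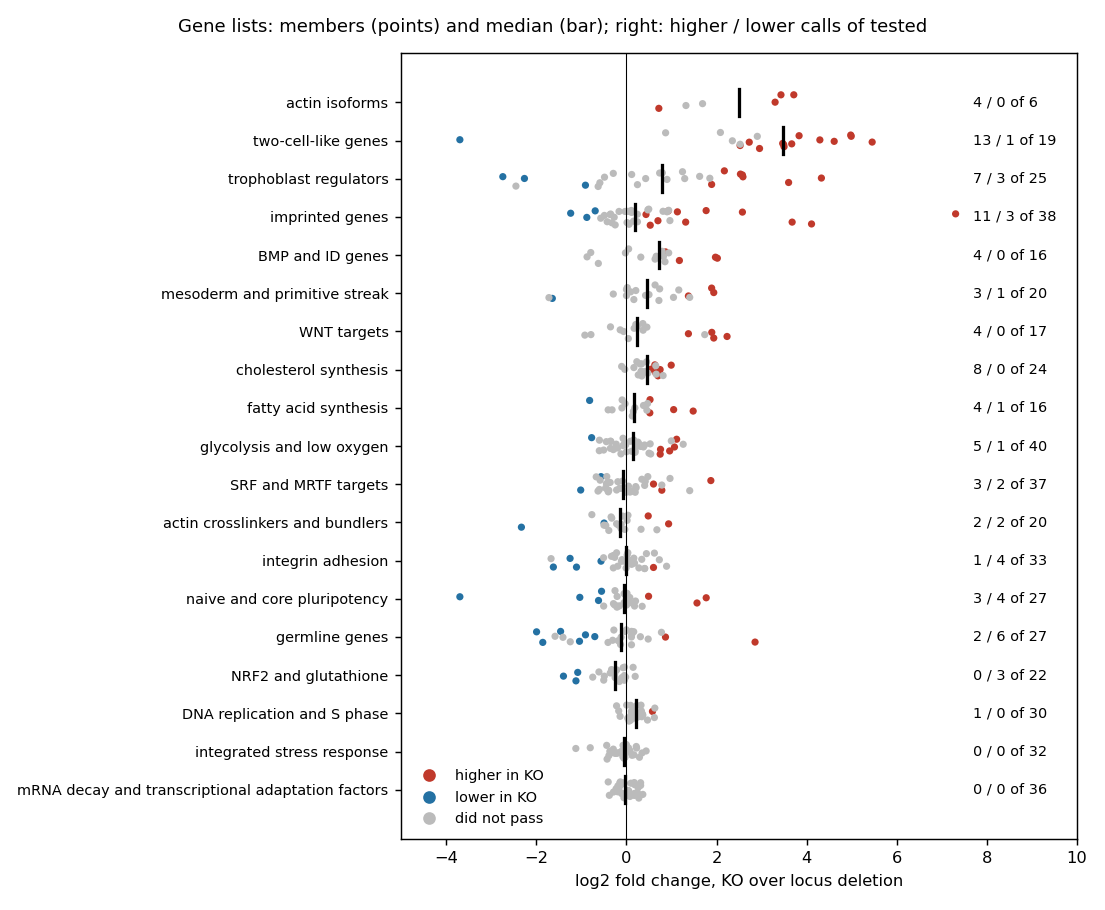
Members of 19 gene lists, with the log2 fold change, KO over locus deletion, on the horizontal axis and 1 list in each line. Points are genes, coloured by the test, black bars are list medians, and the numbers at the right are genes higher, genes lower and genes tested. The lists share some members. The 2-cell-like and actin lists have the highest medians, 3.47 and 2.49, and those of mRNA decay and stress response genes lie near 0. The actin list includes Actb, the targeted gene.

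Several lists held no call. None of 36 genes of mRNA decay and transcriptional adaptation, which include the surveillance factors that degrade mutant mRNA, passed the test with limma (lowest adjusted p = 0.081), with 5 at an unadjusted p below 0.05 and none with the replicate block. Their median was -0.02. None of 19 genes of COMPASS, the complex that methylates histone H3 lysine 4, passed with limma, with 2 at an unadjusted p below 0.05 and 1 with the replicate block. None of 32 integrated stress response genes passed with limma (lowest adjusted p = 0.0505), with 5 at an unadjusted p below 0.05, and 1 was lower with the replicate block. None of 21 genes of the unfolded protein response of the endoplasmic reticulum passed with limma, with 4 at an unadjusted p below 0.05 and 2 higher with the replicate block. None of 7 mitochondrially encoded mRNAs passed with limma, with 1 at an unadjusted p below 0.05 and 2 higher with the replicate block. A p that misses the threshold does not show that the mutants were alike in these genes.

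The remaining lists also held calls, where 2.56 percent of all genes tested were higher and 2.32 percent lower. Of 20 endoderm genes 3 were higher (15 percent) and 1 lower (5 percent). The basement membrane collagens Col4a1 and Col4a2 were at 1.43 and 0.95, the endocytic adaptor gene Dab2 at 1.23 and the laminin gene Lama1 at -0.45. Of 14 neural genes 2 were higher and 2 lower (14.3 percent each). Pax6, a master regulator of eye and neural development, held 5 and 10 in the KO, 48 and 53 in the locus deletion and 7 and 5 in wild type (-2.66, adjusted p = 0.0117, limma), and Olig2 was at 1.42, Stmn2 at 0.94 and Nes at -0.87. Among 24 epithelial genes both keratins were higher (8.33 percent) and 3 genes were lower (12.5 percent), 5 with the replicate block. The lower genes included the desmosome gene Dsp (-1.66) and the protease gene St14 (-1.09). Of 20 genes of mesenchymal state 2 were higher (10 percent), the annexins Anxa2 and Anxa3 (1.46 and 1.85). None was lower, with 3 lower at an unadjusted p below 0.05 (limma). Type I interferon response genes had 1 call each way of 19 (5.26 percent), with the RNA sensor gene Ddx58 at 0.68 and Ifitm1 at -1.29. The p53 targets had 1 call each way of 22 (4.55 percent), Plk2 at 0.47 and Tnfrsf10b at -0.62, and 2 higher with the replicate block.

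Some of the widest gaps fell outside the lists. Ece1, the gene of the enzyme that activates endothelin, held 328 and 361 in the KO, 24 and 31 in the locus deletion and 293 and 341 in wild type (3.61, SE 0.181, adjusted p = 0.000107, limma). Nxf7, an X-linked relative of the nuclear RNA export factors, held 126 and 89 in the KO, 5 and 10 in the locus deletion and 29 and 15 in wild type (3.72, adjusted p = 0.00359, limma). Ece1 was thus low in the locus deletion alone, whereas Nxf7 was high in the KO.

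On the lower side, Slit2, a secreted guidance cue for axons, held 134 and 150 in the KO (142 ± 11.3, n = 2), 847 and 826 in the locus deletion (836.5 ± 14.8, n = 2) and 370 and 390 in wild type (-2.55, SE 0.125, adjusted p = 0.000107, limma). Pof1b, an actin filament binding protein of epithelia, held 5 and 7 in the KO, 135 and 126 in the locus deletion and 33 and 27 in wild type (-4.25, adjusted p = 0.000318, limma), the lowest log2 fold change of all genes tested. For both, wild type lay between the mutants without overlap. Grin1, a subunit of NMDA-type glutamate receptors, held 12 and 29 in the KO, 228 and 247 in the locus deletion and 102 and 98 in wild type (-3.59, adjusted p = 0.00189, limma). Leaving out clone-named transcripts such as D430018E03Rik, the others of the 15 lowest were Rassf4 (-2.76), Olig3 (-2.30), the sialyltransferase gene St6gal1 (-2.39), the myelin gene Mbp (-2.12) and the antisense RNA gene Ptprtos (-2.96). With any 1 library left out, the highest adjusted p was 0.0935 for Slit2, Ece1 and Pof1b, and 0.2 for Nxf7.

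Depth varied more between libraries than between genotypes. The summed values were 16022043 to 16529089 per library, and an estimated 12720000 and 22820000 reads lay behind the KO libraries, 16640000 and 16180000 behind the locus deletion libraries and 13260000 and 18720000 behind the wild-type libraries. Over the 11369 genes averaging 50 or more, the log2 values of libraries 1 and 2 correlated at 0.9854 (KO), 0.9842 (locus deletion) and 0.9806 (wild type). Genes are not independent replicates. KO libraries 1 and 2 thus differed in depth, and 1033 and 251 genes were listed at 0 in them, against 894 and 630 in the locus deletion libraries. Median log2 fold changes of the 19 autosomes lay between -0.04 and 0.08.

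Fibroblast and feeder markers other than Acta2 were low, whereas the blood cell and muscle lists held larger sums. Of 16 fibroblast and feeder markers other than Acta2 and Tagln, 7 were in the table, with sums of 138 and 173 in the KO, 136 and 155 in the locus deletion and 223 and 251 in wild type, and Col1a2, Col3a1 and Dcn were not in the table. Members of the list differed in direction. Pdgfrb, a receptor of fibroblasts and pericytes, held 35 and 51 in the KO against 19 and 22 in the locus deletion, and the matrix protease gene Mmp2 held 17 and 22 against 9 and 8. The matrix protein gene Fbln2 held 44 and 52 in the KO against 61 and 74. With Acta2, 3 of the 9 measured markers were higher at an unadjusted p below 0.05 (limma), and 1 of them, Acta2, passed the adjusted test. Their part in the Acta2 difference was not tested. Of 14 macrophage and blood cell markers 6 were in the table, with sums of 2059 and 1961 in the KO, 1407 and 1293 in the locus deletion and 1126 and 977 in wild type. Most of that was Laptm5, a lysosomal membrane protein gene (0.64, adjusted p = 0.0159, limma), and Ptprc, Adgre1 and Tyrobp were not in the table. Of 18 muscle markers other than Acta2 and Tagln 14 were in the table. They had sums of 2041 and 2214 in the KO, 1897 and 2929 in the locus deletion and 1034 and 966 in wild type. The highest value of a single member was 1993. The regulators Myod1, Myog and Myocd were not in the table. Of all 16 measured muscle markers 3 were higher, Acta2, Acta1 and Cnn1 (18.8 percent, against 2.56 percent of all genes tested). None was lower, and the median log2 fold change was 0.73.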

How the data were processed

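The libraries measured total RNA and, per the labels' protocols, were made with a stranded kit after DNase treatment. Tools listed in the submitters' processing notes, without role or order, are DESeq2 1.14.1, featureCounts 1.6.0, Subread, STAR 2.5.3a and FastQC, beside the build mm10 (GRCm38); strand use and the treatment of reads that match several genes are not given in the sources used here. The authors' deposited values are a score that looks like gene counts scaled by a factor for each library and then rounded to whole numbers, so no count model was used. Every gene reaches at least 4 in some library, and 10 columns of other cell types were not used.

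Values were taken as log2(value + 1) and fitted by limma 3.58.1 (R 4.3.3) with 1 mean for each of the 3 ESC genotypes (6 libraries), a trended prior, two-sided tests and Benjamini-Hochberg adjustment over 23054 genes with a mean of at least 1. Residual degrees of freedom were 3 and prior degrees 5.4. The pseudocount makes log2 fold changes of low genes too small. Ratios are of the group means. Where a group's mean was 3 or less, levels are given in place of a ratio. The KO against locus deletion test was also run on simulated data, drawn with an SD of 0.0989 on the natural log scale. The changed genes were picked from those with a mean of at least 50, 1 SD served for all genes, and libraries were drawn independently. There the test called 92 of 100 genes changed 2-fold and 14 of 100 changed 1.5-fold among 22958 genes, with 0 false calls. These shares of changed genes do not cover genes with a lower mean. The rate of false calls in the measured data, where same-numbered libraries deviated together, was not tested.

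The labels pair libraries only by number. Deviations of same-numbered libraries correlated at 0.492 (KO and locus deletion), 0.678 (KO and wild type) and 0.349 (locus deletion and wild type) over 11369 genes, so the numbers were taken to pair the libraries, on the evidence of these values and not of the labels. The tests stay without a block, and blocked values are given beside results whose call changes with the block or whose count moves by over 1.5 times.

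Genes are named if they are actin isoforms, among the 15 highest or 15 lowest called genes with a mean of at least 50 in the higher group and no overlap (leaving out symbols of the Gm-number and Rik kinds and genes with no symbol), among the 4 lowest adjusted p of a list, within 500 kb of Actb, or among the 5 best blastn matches to Actb (BLAST+ 2.17.0, evalue 1e-05). A gene that meets this rule is not reported here. Nanog, Grpel2 and single markers were named besides, after their values were seen. The genes compared and the 38 lists were chosen with earlier results of these data known. Annotation was GENCODE M21, in which 23045 genes were found by identifier; promoters are from RefSeq. The alternatives were 2 other pseudocounts, 3 filters, 2 scalings, a fit of the 4 libraries alone, a fit with no trend, the replicate block and leaving out each library.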

Additional observations from a re-analysis of the deposited data

How the results depend on the processing

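All 1125 calls kept their direction under 15 of the 16 alternatives, and so did the 1071 of them that were tested with a mean of at least 10, and the number that passed depended on how the spread was estimated. Against 590 higher and 535 lower genes, there were 8 and 4 when only the KO and locus deletion libraries were fitted, 49 and 9 with no trend in the prior, and 909 and 826 with the replicate block. With 1 library left out there were 1 to 28 higher and 0 to 12 lower genes. The counts with 0 lower genes came from leaving out either KO library (limma, with 2712 and 3105 genes at an unadjusted p below 0.05). The other pseudocounts, filters and scalings gave 572 to 673 higher and 518 to 643 lower genes. Scaling to sums without genes over 1 percent of a library gave 589 higher and 641 lower genes, with a median of -0.02.

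Actb passed under every alternative. Actg1 stayed at 0.72 but did not pass with the 4 libraries alone (adjusted p = 0.0946) or with no trend (0.151), and ranged between 0.60 and 0.84 with 1 library left out. Acta2 stayed at 3.71 and did not pass with no trend (adjusted p = 0.0893), and ranged between 3.57 and 3.86 with 1 library left out (adjusted p 0.0487 to 0.227). Of 112 named and called genes, 10 passed with the 4 libraries alone and 18 with no trend. Plk2 did not pass under the scaling to sums (adjusted p = 0.0542). The replicate block changed no call among the genes named. Each group has 2 libraries, which leaves 3 residual degrees of freedom and limits what small differences the test can call.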

Other observations

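Most calls fell in protein coding genes, with 522 higher and 488 lower of 15025. Over all 23054 genes tested 590 were higher (2.56 percent) and 535 lower (2.32 percent). Of 2208 processed pseudogenes tested, 17 were higher and 3 lower in the KO, and of 1059 long intergenic non-coding RNAs 24 were higher and 10 lower. Chromosome 2 held 32 higher and 59 lower genes of 1746, and chromosome 12, which carries the Meg3 and Rian cluster, 31 higher and 13 lower of 1007. The X chromosome held 34 higher and 28 lower of 768. No test was made of these differences between classes or chromosomes.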
